A study of Mus musculus with 4 samples.

Results

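Semaphorins, plexins and neuropilins were examined in laser-captured Purkinje cells, whose inhibitory axons carry the output of the cerebellar cortex. The genes were chosen by name: every probe set of the array whose single gene symbol was a semaphorin of classes 3 to 7, a plexin or a neuropilin. These were 78 of 34945 probe sets with 1 symbol, for 31 of 18193 genes: 20 semaphorins, 9 plexins and 2 neuropilins. Of the 31 genes, 25 had several probe sets.

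Semaphorins are guidance proteins, named by class, that act on plexin receptors of neighbouring or contacted cells. Class 3 proteins are secreted and mostly need a neuropilin as co-receptor, classes 4 to 6 span the membrane, and Sema7a is held there by a lipid anchor. In the mouse cerebellum, Purkinje cells use Sema3a and Sema7a as retrograde signals to their climbing fibre inputs. Sema3a, acting on plexin A4, strengthens these synapses, and Sema7a, acting on plexin C1 and integrin beta 1, promotes the elimination of surplus ones.

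The single group held 4 samples, 2 each from 2 intact male C57BL/6J mice aged 8 weeks, called 2-1, 2-2, 1-1 and 1-2 after the animal and then the sample. Cells were cut from fixed frozen sections, and RNA from about a nanogram of input was amplified in repeated cycles and hybridized to Affymetrix arrays. Whether the pair from an animal came from separate captures, and how many cells each held, the labels do not say. The p-values rest on the spread between samples of the same animal and do not measure variation among animals. Neither the granule cell layer, also named in the series, nor any treated group was analysed here, so the questions were which of these genes gave signal above background and how far that signal differed between the animals.

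A level is a quantile-normalized log2 signal, and its error is the SD over 2 animals. As a bound for background, each array's 95th percentile over 64 genes of non-brain organs was used, each gene at its brightest probe set. By this definition few of the 64 could pass, and 3 did on all 4 arrays. The list was drawn up for this report, and another list could move the bound. It lay at 5.91 in both samples of animal 2, against 6.20 and 6.19 in animal 1, or 65.8 and 81.0 against 59.8 and 60.1 in deposited signal. All 13 measured Purkinje cell markers passed it on all 4 arrays. The trimmed mean of the deposited signal was 72.5 and 87.6 in animal 2, against 55.8 and 56.8 in animal 1. Precision is limited by the number of arrays, and probe sets differ in response, so levels of different genes are not ranked.

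The genes above the bound on all 4 arrays were 5 of 20 semaphorins (25%), 0 of 9 plexins and 0 of 2 neuropilins. With so few receptor genes, no split between ligands and receptors is read from these counts. Sema3a, Sema4f, Sema4g, Sema6d and Sema7a, 5 of 31 genes, lay above the bound on every array at their brightest probe set. Another 9 genes passed on 1 or 2 arrays and 17 on none. Over all named genes, 26.1% lay above the bound on all 4 arrays, near the share of the semaphorins and more than the 16.1% of the 31 genes. By probe set, 5 of 78 passed on all 4 arrays, against 18.7% of all named probe sets.

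**Figure D1:**
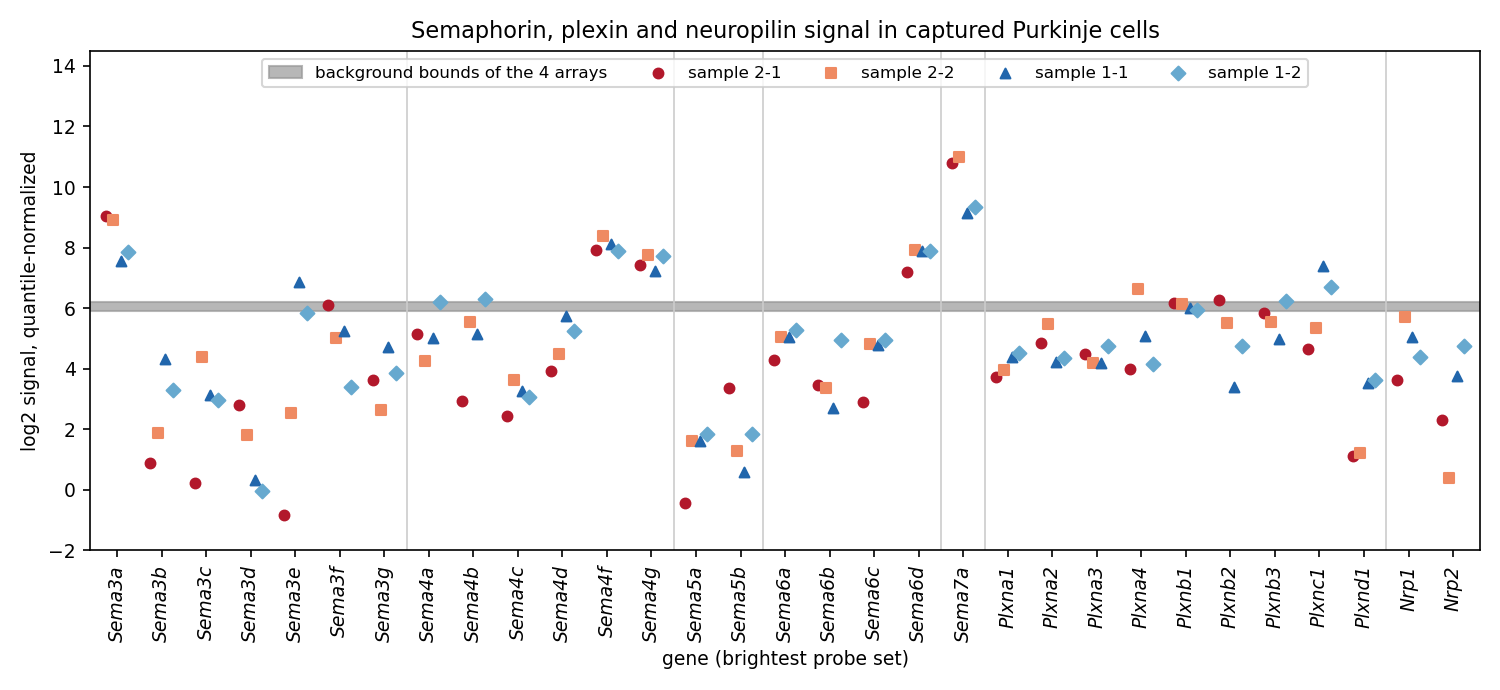
Level of the brightest probe set of each gene (vertical axis, quantile-normalized log2 signal) on the arrays of samples 2-1, 2-2, 1-1 and 1-2, with genes grouped by class along the horizontal axis. The grey band spans the background bounds of the 4 arrays, from 5.91 to 6.20. The symbols of Sema3a, Sema4f, Sema4g, Sema6d and Sema7a all lie above the band, and no plexin or neuropilin has all its symbols above it.

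Sema7a gave the following deposited signals on its probe set 1459903_at: 1898 and 2574 in samples 2-1 and 2-2, against 467 and 551.5 in samples 1-1 and 1-2. Every array lay far above its bound, and both samples of animal 2 lay above both of animal 1. The level was 10.80 and 10.98 in animal 2, against 9.14 and 9.33 in animal 1, with a mean of 10.06 ± 1.17 (SD, n = 2 animals). Samples of 1 animal differed by 0.18 in each animal, and the animals' means by 1.65. The other Sema7a probe set, 1422040_at, was below the bound everywhere, at 2.60 and 12.1 in animal 2, against 0.50 and 6.20 in animal 1. Its animals overlapped, so the signal of this gene rests on 1 probe set.

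Sema3a, which also binds the perineuronal nets around neurons, was at 571 and 642.5 in samples 2-1 and 2-2, against 155 and 190.1 in samples 1-1 and 1-2 (probe set 1420416_at). As with Sema7a, every array was above the bound and the animals did not overlap. The level was 9.05 and 8.92 in animal 2, against 7.57 and 7.85 in animal 1, with a mean of 8.35 ± 0.90 (SD, n = 2 animals). A second Sema3a probe set, 1420417_at, stood at 30.7 and 43.8 in animal 2, against 1.00 and 2.30 in animal 1. It lay below the bound on every array, and its animals did not overlap. The third, 1449865_at, had at most 9.40 on any array.

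The bases upstream of these 2 genes are shown as a description, the genes having been picked after their values were seen. Whether the sequence has a part in the difference between the animals was not tested, and it was not read from these animals. The bases come from RefSeq on build GRCm38.p6, end just before the annotated start, and read 5′ to 3′ on the gene's strand, the plus strand for both. Capitals mark matches, on either strand, to the motifs searched: the GC box GGGCGG, the CCAAT box, the TATA box TATAAA, the cyclic AMP element TGACGTCA and the nuclear receptor half-site AGGTCA.
Sema7a, chr9:57939862-57940111: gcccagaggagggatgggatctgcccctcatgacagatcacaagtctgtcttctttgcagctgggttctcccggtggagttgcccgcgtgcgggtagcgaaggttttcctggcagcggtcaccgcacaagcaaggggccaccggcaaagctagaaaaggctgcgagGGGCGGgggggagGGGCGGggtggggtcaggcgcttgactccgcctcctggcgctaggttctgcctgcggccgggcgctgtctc
Sema3a, chr5:13396534-13396783: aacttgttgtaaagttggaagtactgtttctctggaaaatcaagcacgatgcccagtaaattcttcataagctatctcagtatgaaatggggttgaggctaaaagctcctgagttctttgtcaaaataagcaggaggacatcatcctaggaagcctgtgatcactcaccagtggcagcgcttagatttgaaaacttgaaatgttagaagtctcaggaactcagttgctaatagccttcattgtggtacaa
The Sema7a window held 2 GC boxes on the plus strand, starting 84 and 71 bases before the start, and the Sema3a window held no match to any of the motifs. Bases G and C made up 66.4% of the Sema7a window and 40.8% of the Sema3a window, against a median of 52.4% over 32851 promoters. The Sema7a window held 17 CG dinucleotides and the Sema3a window 2, against a median of 6. The GC box was found upstream of 32.7% of all promoters, and in 27 of 37 promoters (73.0%) of the 26 semaphorin, plexin and neuropilin genes matched in the table. The CCAAT box was in 33.8% of all promoters and 7 of these 37, the half-site in 14.0% and 7 of 37, TATAAA in 12.4% and 0, and the cyclic AMP element in 1.55% and 0. A match describes these letters only.

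Of the other class 3 genes, secreted proteins, none passed on all 4 arrays. Sema3e, a ligand that can bind plexin D1 directly, was at 0.60 and 6.90 in samples 2-1 and 2-2, against 94.3 and 47.0 in samples 1-1 and 1-2 (1442226_at). Its animals did not overlap, and 1 array, that of sample 1-1, passed the bound. The other 3 probe sets of Sema3e had at most 5.70 on any array. Sema3f, which signals through neuropilin 2, passed only in sample 2-1, with 76.3 and 42.6 in animal 2, against 31.6 and 9.60 in animal 1 (1438947_x_at), and its animals overlapped. Sema3b, Sema3c, Sema3d and Sema3g were below the bound on every array with all of their 8 probe sets, the highest value being 26.6, for Sema3c in sample 2-2.

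Class 4 held 2 genes that passed on all 4 arrays, and their levels overlapped between the animals. Sema4f, a protein that binds the postsynaptic scaffold PSD-95, was at 264 and 442 in samples 2-1 and 2-2, against 231 and 198 in samples 1-1 and 1-2 (1439768_x_at). Its level was 8.08 ± 0.09 (SD, n = 2 animals). The name ending of this probe set marks possible binding to other transcripts, and the second probe set, 1419328_at, was below the bound with 13.5 and 63.0 in animal 2, against 13.8 and 24.7 in animal 1. Sema4g, a ligand of plexin B2 in the developing cerebellum, was at 190.3 and 288 in samples 2-1 and 2-2, against 120.3 and 174 in samples 1-1 and 1-2 (1449202_at). Its level was 7.53 ± 0.08, on its only probe set.

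The remaining class 4 genes were at or under the bound. Sema4a, known from immune cells, and Sema4b each passed in sample 1-2 alone. Sema4a was at 37.7 and 23.8 in animal 2, against 27.3 and 60.3 in animal 1 (1438934_x_at), and Sema4b at 7.80 and 62.4, against 29.9 and 65.2 (1455678_at). Both overlapped between the animals. Sema4d, the ligand of plexin B1, had 15.2 and 28.8 in animal 2, against 43.9 and 32.0 in animal 1 on its brightest probe set (1420824_at), passing nowhere. Sema4c, another plexin B2 ligand, had 15.0 at most on its only probe set.

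In classes 5 and 6, Sema6d alone passed. Sema6d, a ligand of plexin A1, was at 165 and 323 in samples 2-1 and 2-2, against 194 and 197 in samples 1-1 and 1-2 (1453055_at), with a level of 7.72 ± 0.23 (SD, n = 2 animals). Samples 2-2, 1-1 and 1-2 had almost the same level, from 7.88 to 7.92, and sample 2-1 stood at 7.20. Its other 3 probe sets had at most 14.2 on any array. Sema6a, whose plexin A2 interaction guides granule cell migration in mice, stayed below the bound with all 3 probe sets, the highest value being 43.7. Sema5a and Sema5b, with thrombospondin repeats, did so with 6 probe sets and at most 53.7, and Sema6b and Sema6c with 4 probe sets and at most 36.6.

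Among the receptors, none of 9 plexins passed on all 4 arrays, 5 passed on 1 or 2 arrays at their brightest probe set, and 4 on none. Plxnb1, the Sema4d receptor, lay on the bound itself: 80.3 and 95.1 in samples 2-1 and 2-2, against 52.6 and 51.3 in samples 1-1 and 1-2 (1435255_at). Both samples of animal 2 passed and both of animal 1 did not, although the levels were 6.19 and 6.14 in animal 2, against 6.01 and 5.96 in animal 1. Plxnb2, needed by granule cell precursors, was at 84.9 and 60.3 in animal 2, against 9.50 and 23.5 in animal 1 (1416683_at), and passed in sample 2-1 alone. Its animals did not overlap. Plxnb3 passed in sample 1-2 alone, with 62.1 and 63.3 in animal 2, against 27.0 and 62.1 in animal 1 (1440813_s_at).

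Plxnc1 and Plxna4, plexins for Sema7a and Sema3a, were above the bound on some arrays only. Plxnc1, the plexin that binds Sema7a, was at 25.5 and 53.7 in samples 2-1 and 2-2, against 136.9 and 84.9 in samples 1-1 and 1-2 (1423213_at). Both samples of animal 1 passed the bound and both of animal 2 did not. Another Plxnc1 probe set, 1423214_at, read 123 in sample 2-1 and at most 0.70 on the other arrays. The other 4 probe sets of Plxnc1 had at most 17.9. Plxna4, which transmits Sema3a signals, was at 15.9 and 133 in animal 2, against 28.5 and 16.1 in animal 1 (1441371_at), so only sample 2-2 passed. Itgb1, the integrin beta 1 that also receives Sema7a, was below the bound on every array with all of its probe sets, at most 25.1. Plxna1, Plxna2, Plxna3 and Plxnd1 were below the bound on every array, with at most 59.4.

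Neither neuropilin gave signal above the bound. Nrp1, the co-receptor for Sema3a, had 12.5 and 70.6 in samples 2-1 and 2-2, against 28.1 and 18.6 in samples 1-1 and 1-2 on its brightest probe set (1448943_at). Nrp2, the co-receptor for Sema3f, had at most 23.7. All 8 neuropilin probe sets were below the bound on all 4 arrays. A value below the bound says that the signal could not be told from background here, not that the RNA was absent.

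Some genes had probe sets on opposite sides of the bound. Of the 25 genes with several probe sets, 4 (Sema3a, Sema4f, Sema6d and Sema7a) had 1 above it on all 4 arrays and at least 1 other above it on none. Among all named genes with several probe sets this held for 28.4%. The mean levels of the brightest and the dimmest probe set of a gene were 8.38 apart for Sema7a, 7.01 for Sema3a, 5.33 for Sema6d and 3.57 for Sema4f. With the median over the probe sets of a gene in place of the brightest, 1 gene passed on all 4 arrays, Sema4g.

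**Figure D2:**
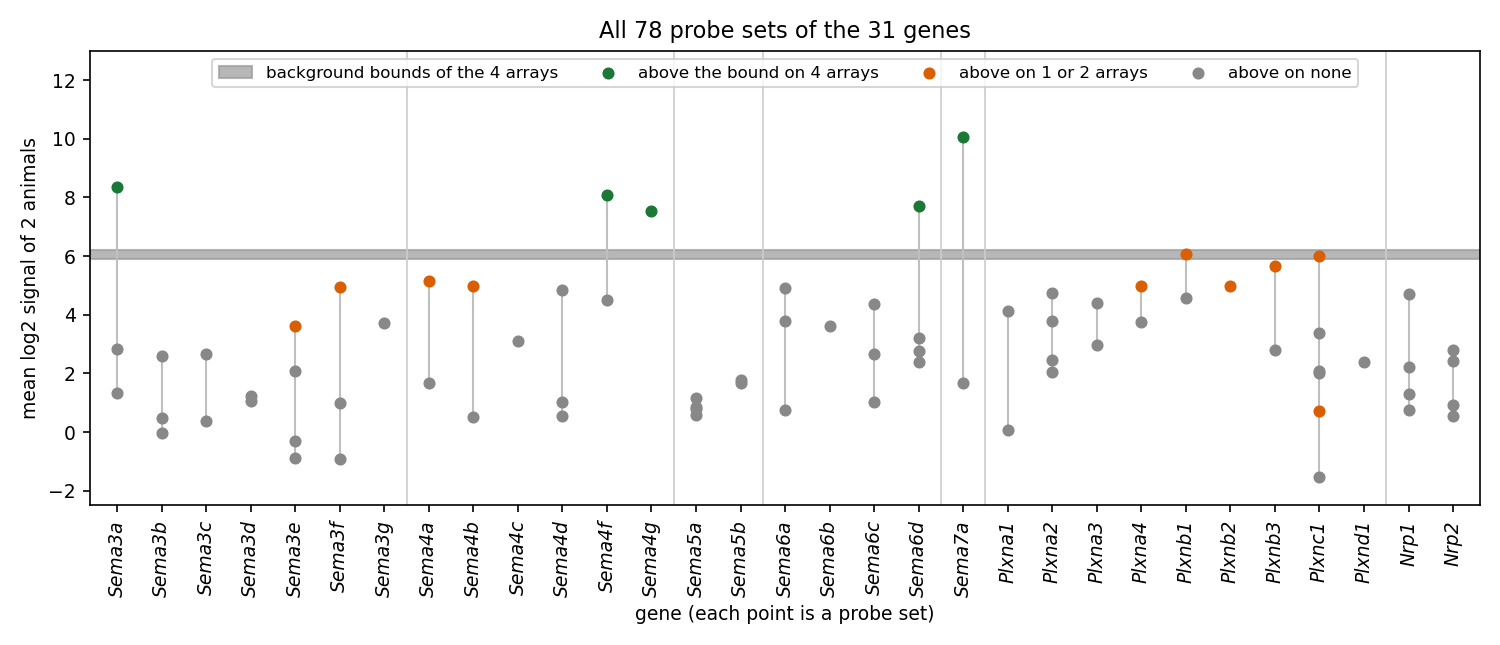
Mean level over 2 animals (vertical axis, log2 signal) of each of the 78 probe sets, with the 31 genes along the horizontal axis and grey lines joining probe sets of a gene. Colours give the number of arrays on which a probe set passed its background bound, and the grey band spans those bounds. Sema3a, Sema6d and Sema7a each have 1 green point above the band and all others below it.

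The second question was how far the animals differed. Both were untreated and labelled alike, so the test describes these samples. Probe sets that passed on 2 or more arrays, 9965 in all, were tested with limma, and 7 of the 78 semaphorin, plexin and neuropilin probe sets were among them. The 7 were the 5 named above that passed on all 4 arrays, Plxnb1, which entered through animal 2 alone, and Plxnc1, which entered through animal 1 alone.

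Sema7a was higher in animal 2, with a log2 difference of 1.65 ± 0.17 (SE, limma, 2 samples per animal, adjusted p = 0.0368), or 3.15-fold, and both samples of animal 2 lay above both of animal 1. It was the 1 probe set of the family called. In all 9965, 25 probe sets (0.251%) were called higher and 17 (0.171%) lower. The Sema7a call was lost without sample 1-1 (adjusted p = 0.375) or 1-2 (adjusted p = 0.235), without the mean-variance trend (adjusted p = 0.191) and when dim probe sets were kept (adjusted p = 0.108). Without sample 2-1 or 2-2 the adjusted p was 0.0107 and 0.0212, and over the 11 alternatives the difference ran from 1.55 to 2.12.

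Sema3a did not pass the adjusted threshold. Its difference was 1.28 ± 0.27 (SE, limma, adjusted p = 0.0971, unadjusted p = 0.0024), or 2.42-fold. It was called on values as deposited (1.82, adjusted p = 0.0257) and without sample 2-1 (adjusted p = 0.0496) or 2-2 (adjusted p = 0.0397), and over 11 alternatives it ran from 1.13 to 1.82. Plxnc1 was not called (limma, adjusted p = 0.156), and having entered through animal 1 alone it was favoured by the filter to be lower in animal 2. The mean level of Plxnc1 was 5.0 in animal 2, under the bound, against 7.04 in animal 1, so no fold is read from it.

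The other 4 tested probe sets had differences between -0.33 and 0.18, with adjusted p from 0.656 to 0.894 (limma). These were Sema6d at -0.33 ± 0.35 (SE), Sema4f at 0.13 ± 0.31, Sema4g at 0.11 ± 0.35 and Plxnb1 at 0.18 ± 0.50. Over all tested, 9.18% had an unadjusted p under 0.05 and were higher, and 9.73% lower, which in the family held for Sema7a and Sema3a, both higher, and Plxnc1, lower. In 24.7% of all tested both samples of animal 2 lay above both of animal 1, as they did for Sema7a, Sema3a and Plxnb1, and in 26% both lay below, as for Plxnc1. The directions of Plxnb1 and Plxnc1 are those their entry through 1 animal favours, so these counts are not read against the shares. With no filter all 78 probe sets could be fitted: 5 had an unadjusted p under 0.05 and were higher, and 5 were lower, against 4.31% and 4.8% of 45037 probe sets. The 5 higher were Sema7a, Plxnb2, 1 probe set of Sema6a and 2 of Sema3a, and the 5 lower were Sema3e, Nrp2, Plxna4 and 2 probe sets of Plxnc1. Besides Sema7a, Plxnc1 on 1423213_at and Sema3a on 1420416_at these lay at or near background, so their differences compare dim signals. Nrp2 on 1456778_at was at 4.80 and 1.60 in animal 2, against 12.3 and 23.7 in animal 1. Plxna4 on 1457840_at was at 1.90 and 16.9 in animal 2, against 24.0 and 37.7 in animal 1. Sema6a on 1425903_at was at 3.80 and 8.70 in animal 2, against 0.30 and 0.70 in animal 1, and Plxnc1 on 1450905_at at 4.10 and 0.30 in animal 2, against 14.4 and 15.3 in animal 1. Other probe sets did not always share these directions: Nrp2 on 1426528_at had 9.50 and 10.4 in animal 2, against 4.90 and 1.90 in animal 1. None of the 78 was called, the lowest adjusted p being 0.108, against 0.0111% of all.

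**Figure D3:**
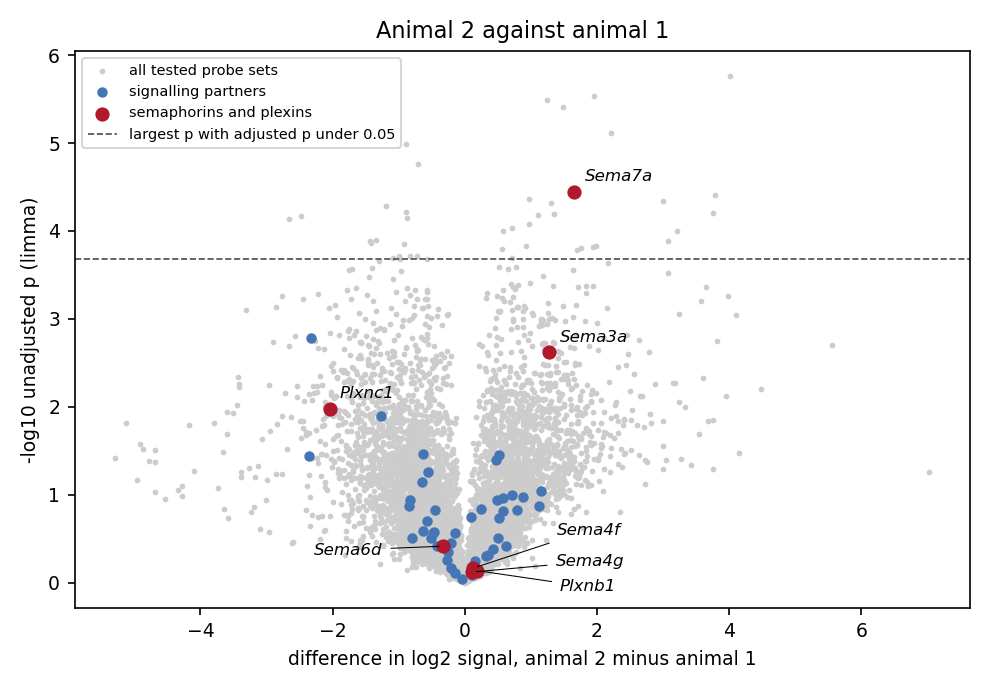
Difference in log2 signal, animal 2 minus animal 1 (horizontal axis), against -log10 of the unadjusted limma p (vertical axis) for 9965 tested probe sets in grey. Signalling partners are blue, and the 7 semaphorin and plexin probe sets are red and named. Sema7a, at 1.65, is the red point above the dashed line, which marks the largest p with an adjusted p under 0.05.

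Cell type markers and array brightness moved between the same samples, and their part in these differences was not tested. The 18 control probe sets for hybridization were brighter in animal 2, with a median ratio of deposited signal of 1.92 over animal 1. The summed deposited signals that follow are not adjusted for brightness. The summed deposited signal of the 13 Purkinje markers was 94613 and 102880 in animal 2, against 65898 and 67617 in animal 1. After normalization their median difference was 0.06. Both samples of animal 2 lay above both of animal 1 for 7 of the 13 and below both for 2, against 24.7% and 26% of all tested probe sets. Pcp2 was called higher in animal 2, with a difference of 0.57 (limma, adjusted p = 0.0414). The 11 granule cell markers, 4 of which passed on all 4 arrays, summed to 1962 and 2584 in animal 2, against 3353 and 4315 in animal 1, with a median difference of -1.23. Zic1, Gabra6, Cbln1 and Neurod1 passed, and the vesicular glutamate transporter Slc17a7 had at most 9.0. The 12 Bergmann glia and astrocyte markers, 7 of which passed, summed to 12112 and 12924 in animal 2, against 11772 and 11764 in animal 1, with a median difference of -0.44. The 12 oligodendrocyte markers, 3 of which passed, summed to 4546 and 4050 in animal 2, against 4502 and 4351 in animal 1, with a median difference of -0.96. Cnp, Mbp and Ugt8a passed, with differences of -0.69, 0.13 and -0.98, and Mog had at most 8.70. Interneuron, vessel and microglia lists passed with 2 of 8, 2 of 12 and 1 of 10, with median differences of -0.34, -0.73 and 1.18. Both samples of animal 2 lay above and below both of animal 1 for 0 and 6 of 11 granule cell markers. For Bergmann glia and astrocyte markers this held for 2 and 7 of 12, and for oligodendrocyte markers for 3 and 5 of 12. For interneuron, vessel and microglia markers it held for 2 and 2 of 8, 1 and 5 of 12, and 4 and 1 of 10. Except for Purkinje cells, the list medians and these counts include genes below the bound. Of the microglia markers 9 passed on no array, and Csf1r, the one that passed, was lower in animal 2, at -1.46. The interneuron markers that passed were Lgi2, at -0.81, and Prkcd, at 0.67. In captured samples fewer cells of a type and less RNA per cell cannot be told apart.

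Partners of semaphorin signalling were counted from 4 lists, of which 64 of 71 genes had a probe set with 1 symbol. Of these 64, 21 lay above the bound on all 4 arrays (32.8%, against 26.1% of all named genes), 11 on 1 to 3 and 32 on none. By list the share was 18.75% for surface partners, 35% for GTPases and regulators, 41.7% for kinases and 37.5% for cytoskeletal partners. Each list held 20 measured genes or fewer, so no list is read as set apart from all named genes. None of their 45 tested probe sets was called between the animals, against 0.251% higher and 0.171% lower of all tested. At an unadjusted p under 0.05 (limma) 2 were higher and 4 lower, against 9.18% and 9.73% of all tested, and the median difference was -0.04, against -0.05 over all tested named probe sets.

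Surface partners passed with 3 of 16 genes, all cell adhesion molecules of the L1 family. Nrcam, a neuropilin 2 partner, was at 905 and 1071 in samples 2-1 and 2-2, against 496 and 514 in samples 1-1 and 1-2, with a level of 9.47 ± 0.33 (SD, n = 2 animals). Chl1 was at 197 and 158 in animal 2, against 228 and 367 in animal 1 (7.80 ± 0.90), and L1cam, a neuropilin 1 partner, at 165 and 103.5, against 62.0 and 66.9 (6.52 ± 0.30). In level the animals did not overlap for Nrcam, higher in animal 2, and Chl1, lower there, but did for L1cam, and none was called. A second Nrcam probe set above the bound on all 4 arrays went the other way, with levels of 9.43 and 9.14 in animal 2, against 9.46 and 9.52 in animal 1. Met, a receptor kinase that pairs with plexin B1, passed nowhere and had 2.80 at most in deposited signal.

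GTPases and their regulators passed with 7 of 20 genes. Rap1a and Rap1b, small GTPases that plexins inactivate, were at 10.86 ± 0.17 and 9.81 ± 0.37 (SD, n = 2 animals), and Rac1, which binds plexins when active, at 8.90 ± 0.03. Rnd3, a constitutively active small GTPase, passed on no array, with 20.5 at most in deposited signal. Kinases passed with 5 of 12 genes, among them Gsk3b, which phosphorylates collapsin response mediators, at 8.77 ± 0.45, the Cdk5 activator Cdk5r1 at 8.27 ± 0.34, Fyn and Cdk5. Fes, a tyrosine kinase bound by plexin A1, passed on no array, with 12.8 at most in deposited signal.

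Cytoskeletal partners passed with 6 of 16 genes. The actin-severing cofilin Cfl1 was at 12.83 ± 0.07, Dpysl2, the collapsin response mediator that links Sema3a to microtubules, at 11.53 ± 0.11, and Cfl2 at 9.04 ± 0.39 (SD, n = 2 animals). Dpysl2 was at 2671 and 3904 in samples 2-1 and 2-2, against 2574 and 2815 in samples 1-1 and 1-2, and the animals overlapped in level. The redox enzymes Mical1, Mical2 and Mical3, which oxidize actin downstream of plexins, passed on no array, with at most 18.4 in deposited signal for Mical1.

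**Figure D4:**
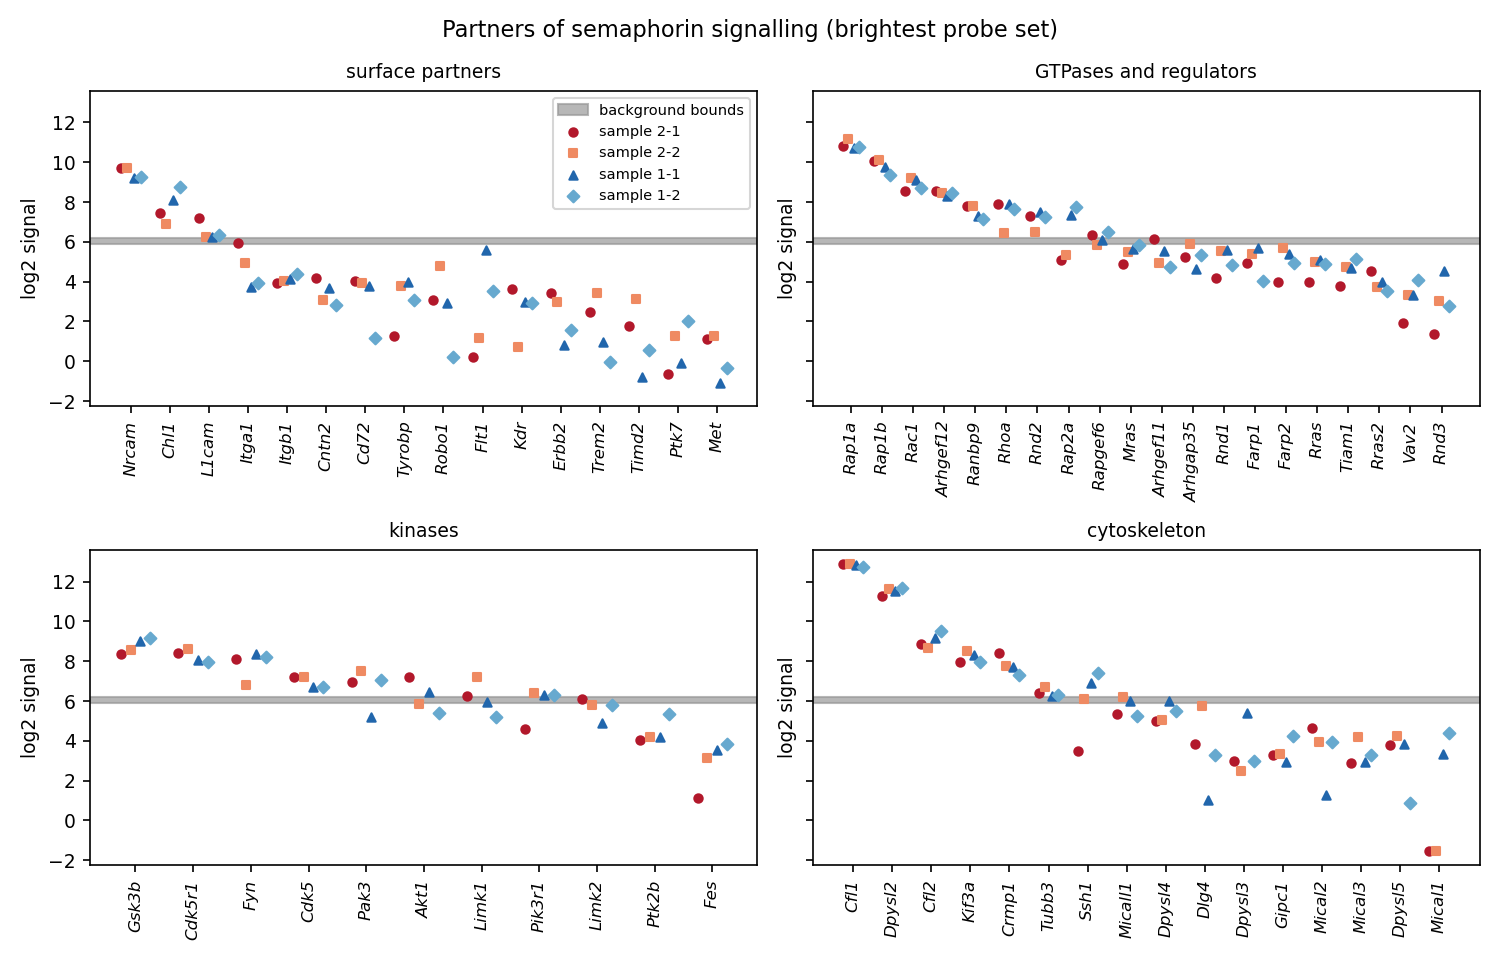
Level of the brightest probe set (vertical axis, quantile-normalized log2 signal) of the partner genes, 1 kinase left out, in samples 2-1, 2-2, 1-1 and 1-2, in 4 panels by role, with genes along each horizontal axis. The grey band spans the background bounds. Cfl1 and Dpysl2 lie far above the band on every array, and the 3 Mical genes lie below it.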

How the data were processed

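The 4 arrays were read from 1 deposited table of linear intensity signals, for which the submitters' processing notes name GCOS. Its version, algorithm and scaling stay not given in the sources used here. From the values, the table held 45101 probe sets, 64 of them controls, which were left out of the normalization and the tests.

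Gene names came from GEO's platform annotation, and the symbols of all 78 member probe sets matched RefSeq gene identifiers. Signals under 0.1 were set to 0.1 and log2 was taken. Because trimmed means (2% from each end) differed by 46.6%, over a limit of 5%, quantile normalization was applied. The animals were compared with limma 3.58.1 (R 4.3.3), with a mean-variance trend, 2 residual degrees of freedom and Benjamini-Hochberg adjustment over all tested probe sets at 0.05. The fit was run on simulated data with independent noise and known changes added. Those data held no shift of brightness or cell mixture between the animals, so they do not bear on how firm the calls here are.

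All members are named. Values on every array are given for members above the bound on all 4 arrays, with an unadjusted p under 0.05, or with probe sets on both sides of the bound. Of each partner list the probe sets with the 3 highest signals and the lowest are named, a choice of names and no ranking of genes, except 1 kinase not reported here, and other genes were named after their values were seen. Members and lists were chosen with earlier results of these data known. Alternatives were other bounds, scalings, filters, probe set choices, an offset of 16, no trend, a block and leaving out each sample.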

Additional observations from a re-analysis of the deposited data

Results flagged for a closer look

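Of the 15 semaphorin, plexin and neuropilin probe sets that passed the bound anywhere, 2 had 1 sample far from the other 3, by the gap between that sample and its nearest neighbour divided by the whole range of log2 levels. Of all 78 probe sets, 6 had such a gap. Chance gives it in about 1 in 20 groups of 4 independent, normally distributed values. The samples here were 2 pairs from 2 animals, so the counts are not read against that share. For Sema6d on 1453055_at the gap was 0.952 of the range, with sample 2-1 below the others. The whole range was small there, with levels of 7.20 and 7.92 in animal 2, against 7.88 and 7.89 in animal 1. For Plxnc1 on 1423214_at the gap was 0.862 of the range, with sample 2-1 above the others: the deposited signal was 123 and 0.70 in animal 2, against 0.40 and 0.20 in animal 1. That probe set passed the bound in sample 2-1 alone, so the filter favoured this gap.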

How the results depend on the processing

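The count of member probe sets that passed on all 4 arrays, 5, ran from 4 to 7 over 10 alternatives, and the count of genes kept within the same range over 10 of 11, the exception being 1 gene with the median over probe sets. Plxnb1 and Plxnb3 were added with the bound at the 90th percentile, and Plxnb1 and Plxnc1 when 2 arrays sufficed. Calls between the animals were less stable. Of all tested probe sets 42 were called, and 655 on values as deposited (644 higher and 11 lower, where the median of all tested was 0.48 higher in animal 2), 0 without the trend (832 each way at an unadjusted p under 0.05), 5 with no filter and 177 when all 4 arrays had to pass. The count ran from 1 to 849 when a sample was left out. With the sample number as a replicate block it was 238, but the numbers mark no shared source. Of the family 1 probe set was called, 2 on values as deposited, 0 without the trend, 0 with no filter, and 0 to 3 when a sample was left out. The cause was not tested. When a sample is left out, the spread comes from the pair of the other animal alone. The differences of Sema7a and Sema3a kept their direction in all 11 alternatives. Signal near background limits the values of every gene below the bound.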
